A study of Homo sapiens with 31 samples.

Results

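The 37 interferon-induced effector genes described here are genes that human cells switch on after exposure to interferon and whose products act against viruses. They were chosen by gene symbol, with earlier results of these data known, and grouped by the role of their products. All 37 were measured, each by 1 probe set that carried no other symbol, among 17314 named genes on the arrays.

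Type I interferons bind a receptor on the cell surface, and kinases bound to it activate transcription factors that bind the interferon-stimulated response element in the promoters of responding genes. The products modify proteins with the ubiquitin-like ISG15, bind or destroy viral RNA, block the entry or the release of virus particles, and sense further nucleic acid. In tumour cells a set of these genes can stay on without added interferon, and such a state has been described in relation to DNA-damaging treatment.

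RNA of xenograft tumours of PC3, an established human prostate carcinoma line, was profiled on Affymetrix Human Gene 1.0 ST arrays. Clone A3, re-isolated after passage in animals and labelled sensitive to cyclophosphamide (CPA), gave 4 CPA-treated and 3 untreated arrays. Clones D3 and D4, also passaged in animals and labelled resistant, gave 4 CPA-treated and 4 untreated arrays each. The unpassaged parental line (wt), labelled sensitive, gave 4 CPA-treated and 4 untreated arrays. CPA, an alkylating prodrug, was injected at 120 mg/kg into animals whose tumours averaged 30 mm3. Each passaged line is 1 clone, so differences between lines cannot be told apart from differences between single clones. The arrays carry human probes, and RNA of the host animal can bind some of them. The labels do not say that each array is a different animal, and p-values then describe only how far these arrays spread, part of which may be technical.

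Values are log2 expression levels, so a difference of 1 is 2-fold. Differences are given with the standard error (SE) of 1 limma fit over all 31 arrays, and a gene was called at a Benjamini-Hochberg adjusted p under 0.05 over all genes. Array medians lay between 6.59 and 6.73, and replicate arrays correlated at 0.985 to 0.996 across genes. KRT18 and VIM, keratin and vimentin genes of carcinoma cells in culture, averaged 9.92 to 10.03 and 11.07 to 11.37 over the 8 groups. KLK3, which encodes prostate-specific antigen, averaged 5.86 to 5.98. Of 7 identity genes of PC3 and prostate measured, 2 were called lower in untreated A3 than in untreated wt (all genes 8.36%). None was called against wt in untreated D3 or D4, and none was called higher in A3. KRT8, a further keratin gene, read 9.41 to 9.57 in untreated A3 and 9.79 to 10.21 in untreated wt. EPCAM read 8.22 to 8.42 in untreated A3 and 8.56 to 8.96 in untreated wt.

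Promoters of 30 of the 37 genes were found in RefSeq (GRCh38.p14), each from 250 bases before to 50 after the start. The core of the response element was searched on both strands as GAAA, any 2 bases and GAAA again, which reads TTTC, 2 bases and TTTC on the other strand. It was present in 20 of the 30 promoters (66.7%), in 2.92% of the 13457 promoters of genes on the arrays and in 3.65% of all 27305 promoters in the table. The site bound by STAT dimers, TTCNNNGAA, which reads the same on both strands, was present in 8 of the 30 (26.7%), against 6.98% and 7.88% in the same sets. These matches describe the letters of the window and are not binding sites that were measured.

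The 4 promoters with a core that belong to the genes with the largest differences between clones and wt are shown, 5′ to 3′ on the strand of the gene, with each core in capitals. They lie at chr1:78620198-78620497 (IFI44L, plus strand), chr1:78649539-78649838 (IFI44, plus strand), chr11:313790-314089 (IFITM1, plus strand) and chr4:168318703-168319002 (DDX60, minus strand).
IFI44L: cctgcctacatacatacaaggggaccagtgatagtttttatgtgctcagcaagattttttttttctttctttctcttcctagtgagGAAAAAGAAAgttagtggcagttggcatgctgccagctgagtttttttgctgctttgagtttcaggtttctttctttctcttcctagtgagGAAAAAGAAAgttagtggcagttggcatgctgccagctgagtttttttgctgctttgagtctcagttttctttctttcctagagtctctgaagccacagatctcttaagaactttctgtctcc
IFI44: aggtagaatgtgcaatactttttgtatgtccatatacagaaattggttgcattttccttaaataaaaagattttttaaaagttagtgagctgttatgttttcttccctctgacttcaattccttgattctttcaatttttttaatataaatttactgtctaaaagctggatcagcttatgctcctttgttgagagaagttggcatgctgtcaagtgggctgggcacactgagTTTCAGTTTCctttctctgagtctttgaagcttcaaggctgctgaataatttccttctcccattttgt
IFITM1: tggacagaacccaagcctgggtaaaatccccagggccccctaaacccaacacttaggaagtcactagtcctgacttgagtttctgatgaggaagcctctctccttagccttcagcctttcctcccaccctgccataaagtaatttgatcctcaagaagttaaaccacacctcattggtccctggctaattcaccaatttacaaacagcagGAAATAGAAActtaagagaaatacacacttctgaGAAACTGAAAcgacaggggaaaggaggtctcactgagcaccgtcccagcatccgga
DDX60: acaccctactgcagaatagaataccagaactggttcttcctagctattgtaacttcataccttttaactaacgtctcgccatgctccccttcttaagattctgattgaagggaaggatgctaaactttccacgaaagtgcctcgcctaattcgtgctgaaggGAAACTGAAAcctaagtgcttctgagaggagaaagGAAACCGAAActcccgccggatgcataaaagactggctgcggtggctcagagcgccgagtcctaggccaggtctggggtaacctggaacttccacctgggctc
IFI44L holds cores whose first bases lie 164 and 73 bases before the start, both inside a repeated stretch. IFI44, its neighbour on chromosome 1, holds 1 core, on the opposite strand, 18 bases before the start. In IFITM1 the cores begin 40 and 6 bases before the start, and in DDX60 they begin 88 and 53 bases before it. SAMD9L and XAF1 held no core in this window; their mean differences from wt over the 3 clones, were 2.15 and 1.86 in size, beside 2.79 for IFI44L, 1.89 for IFI44, 1.86 for IFITM1 and 1.83 for DDX60.

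The first comparison asks how the untreated clones differ from the untreated parental line. Most of the effector genes were lower in every clone. Of the 37 genes, 31 were called lower in A3, where 8.36% of all genes were called lower. In D3 35 were called lower (all genes 8.4%) and in D4 34 (all genes 10.9%), and none was called higher in any clone (all genes 10.1%, 9.69% and 9.22%). At least 2-fold lower were 21, 22 and 22 of them in A3, D3 and D4, against 0.693%, 0.549% and 0.67% of all genes. The median difference of the 37 genes was -1.09 in A3, -1.22 in D3 and -1.23 in D4, and that of all genes was 0.04, 0.01 and 0.05. These comparisons share the wt arrays. In bulk tumour RNA, fewer cells of a type and less RNA per cell cannot be told apart.

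**Figure D1:**
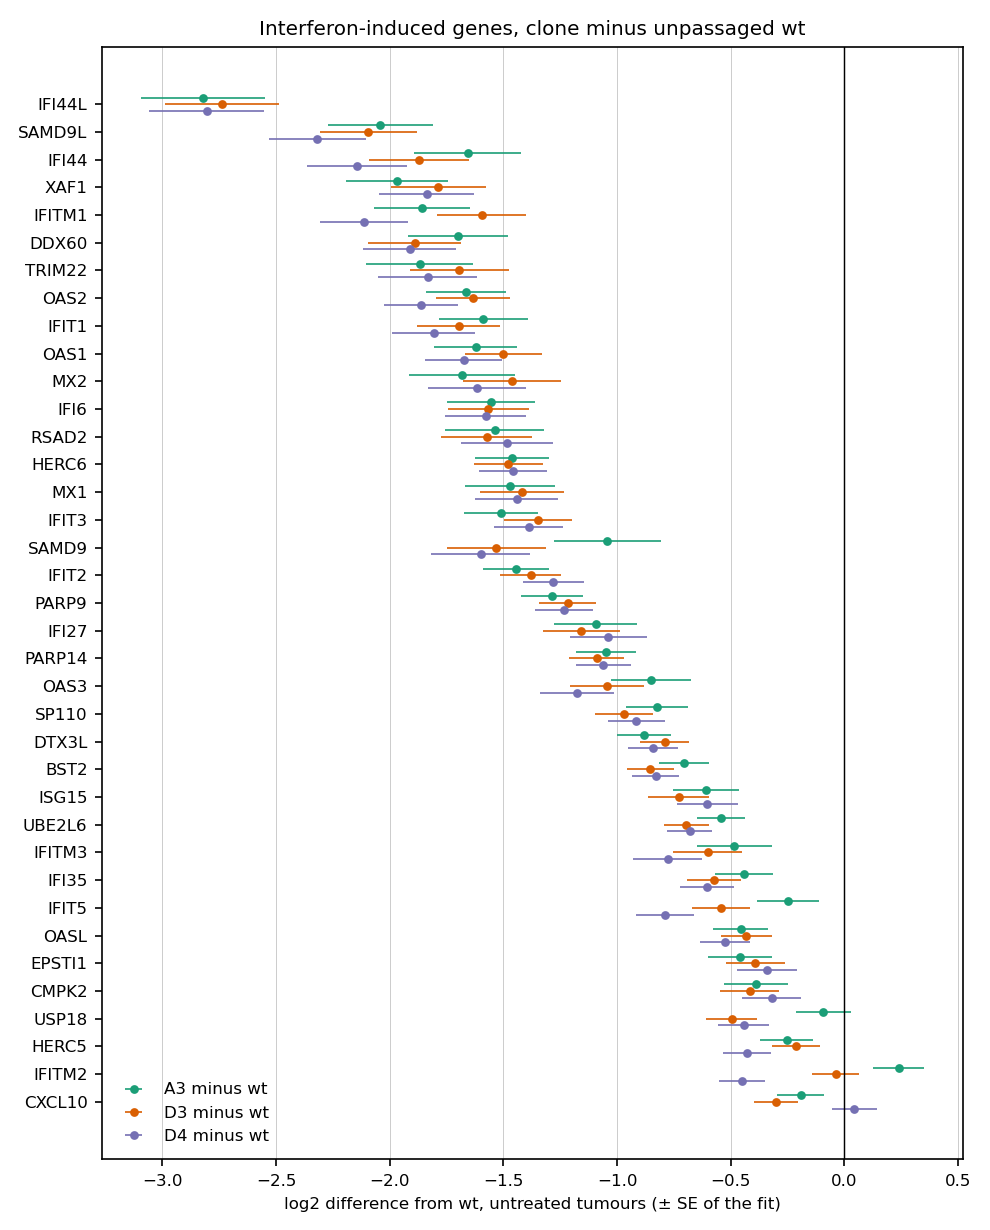
The log2 difference from untreated wt tumours (horizontal axis, bars ± SE of the fit) is plotted for each of the 37 genes in untreated A3, D3 and D4 tumours. IFI44L lies farthest to the left, at -2.82, -2.74 and -2.81, and IFITM2 and CXCL10 lie on both sides of 0.

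In 30 genes the call was lower in all 3 clones (5.12% of all genes). The same 30 were called lower in all 3 clones after CPA (3.66% of all genes), so in all 6 comparisons (3.1% of all genes). The other 7 were IFIT5, HERC5, USP18, CMPK2, EPSTI1, IFITM2 and CXCL10. Across both treatments, 25 of the 37 genes had all 8 wt arrays above all 23 clone arrays, as did 2.28% of all genes. The wt groups were the highest 2 of the 8 groups in 33 of the 37 genes, an order that was not counted over all genes.

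The 5 genes of ISG15 conjugation ran from strong to slight differences. HERC6, a relative of the ISG15 ligase HERC5, read 7.16, 7.13 and 7.37 in A3 tumours, 7.26, 7.06, 7.28 and 7.23 in D3 tumours and 7.06, 7.40, 7.25 and 7.21 in D4 tumours, against 8.87, 8.59, 8.91 and 8.36 in wt tumours. The highest clone array, at 7.40, lay below the lowest wt array, at 8.36. HERC6 was called lower, at -1.46 ± 0.16 in A3, -1.48 ± 0.15 in D3 and -1.46 ± 0.15 in D4 (limma adjusted p 1.77e-07, 4.42e-08 and 3.5e-08). ISG15, the modifier itself, read 7.87, 7.75 and 7.81 in A3 tumours, 7.82, 7.51, 7.77 and 7.67 in D3 tumours and 8.08, 7.81, 7.75 and 7.64 in D4 tumours, against 8.63, 8.09, 8.58 and 8.38 in wt tumours. ISG15 was called lower, at -0.61 ± 0.15 in A3, -0.73 ± 0.14 in D3 and -0.60 ± 0.14 in D4 (limma adjusted p 0.00311, 0.000227 and 0.00158), and the highest clone array, of D4 at 8.08, lay just below the lowest wt array, at 8.09. UBE2L6, the conjugating enzyme for ISG15, was called lower in each clone, at -0.54 to -0.70. HERC5, the main ligase for ISG15 in human cells, read 6.61, 6.45 and 6.50 in A3 tumours, 6.62, 6.55, 6.66 and 6.42 in D3 tumours and 6.36, 6.44, 6.21 and 6.36 in D4 tumours, against 6.64, 6.84, 6.86 and 6.76 in wt tumours. Its differences were -0.26 ± 0.12 in A3, -0.21 ± 0.11 in D3 and -0.43 ± 0.11 in D4 (limma adjusted p 0.132, 0.186 and 0.00372), so only D4 passed. USP18, which removes ISG15 and also dampens the receptor, was called lower in D3 (-0.50 ± 0.11) and D4 (-0.44 ± 0.11) and differed by -0.09 ± 0.12 in A3 (limma adjusted p 0.686).

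The IFIT genes encode RNA-binding proteins that recognise viral RNA by its end. IFIT1 read 8.40, 8.48 and 8.82 in A3 tumours, 8.57, 8.24, 8.44 and 8.58 in D3 tumours and 8.37, 8.35, 8.21 and 8.46 in D4 tumours, against 10.27, 10.05, 10.51 and 9.79 in wt tumours. Clone and wt arrays did not overlap. IFIT1 was called lower, at -1.59 ± 0.20 in A3, -1.70 ± 0.18 in D3 and -1.81 ± 0.18 in D4 (limma adjusted p 8.56e-07, 1.09e-07 and 2.48e-08). IFIT3, a partner of IFIT1 in the same complex, read 6.76, 6.78 and 6.71 in A3 tumours, 6.92, 6.96, 6.77 and 7.02 in D3 tumours and 7.08, 6.92, 6.54 and 6.95 in D4 tumours, against 8.31, 8.27, 8.64 and 7.84 in wt tumours. IFIT3 was called lower, at -1.51 ± 0.16 in A3, -1.35 ± 0.15 in D3 and -1.39 ± 0.15 in D4 (limma adjusted p 1.07e-07, 1.84e-07 and 7.59e-08). IFIT2 was called lower in all 3 clones, at -1.28 to -1.45. IFIT5 moved less and unevenly, at 8.04, 7.58 and 8.10 in A3 tumours, 7.57, 7.70, 7.44 and 7.73 in D3 tumours and 7.22, 7.50, 7.11 and 7.63 in D4 tumours, against 7.95, 8.28, 8.22 and 8.16 in wt tumours. Its differences were -0.25 ± 0.14 in A3 (limma adjusted p 0.235), -0.54 ± 0.13 in D3 (0.00228) and -0.79 ± 0.13 in D4 (2.85e-05). In A3, 2 of the 3 arrays lay within the range of the wt arrays.

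The OAS enzymes make short oligoadenylates in the presence of double-stranded RNA and thereby switch on a latent ribonuclease. All 4 were called lower in each clone. OAS2 read 7.48, 7.56 and 7.87 in A3 tumours, 7.81, 7.50, 7.70 and 7.65 in D3 tumours and 7.44, 7.43, 7.44 and 7.43 in D4 tumours, against 9.62, 9.12, 9.49 and 8.96 in wt tumours. The 4 D4 arrays read almost alike, while the wt arrays ran from 8.96 to 9.62. OAS2 was called lower, at -1.66 ± 0.18 in A3, -1.63 ± 0.16 in D3 and -1.86 ± 0.16 in D4 (limma adjusted p 8.57e-08, 3.51e-08 and 1.96e-09). OAS1 read 7.61, 7.91 and 8.25 in A3 tumours, 8.04, 7.94, 8.17 and 8.03 in D3 tumours and 7.87, 8.04, 7.89 and 7.68 in D4 tumours, against 9.84, 9.29, 9.75 and 9.29 in wt tumours, with no overlap. OAS1 was called lower, at -1.62 ± 0.18 in A3, -1.50 ± 0.17 in D3 and -1.67 ± 0.17 in D4 (limma adjusted p 2.01e-07, 2.04e-07 and 2.48e-08). OAS3 differed by -0.85 to -1.18, and OASL, which lacks the enzyme activity, by -0.43 to -0.53.

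Both MX genes, which encode dynamin-like GTPases that trap viral nucleocapsids, were called lower in each clone. MX2 read 5.98, 6.39 and 5.95 in A3 tumours, 6.43, 5.94, 6.68 and 6.26 in D3 tumours and 6.09, 6.17, 6.0 and 6.43 in D4 tumours, against 8.19, 7.48, 8.0 and 7.50 in wt tumours. Its highest clone array, of D3, lay below its lowest wt array. MX2 was called lower, at -1.68 ± 0.23 in A3, -1.46 ± 0.22 in D3 and -1.62 ± 0.22 in D4 (limma adjusted p 4.37e-06, 1.2e-05 and 2.21e-06). MX1, the member known for acting on influenza virus, differed by -1.42 to -1.47.

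The next 4 genes encode proteins that stop virus at membranes, and 3, 3 and 4 of them were called lower in A3, D3 and D4. IFITM1, which hinders fusion at the cell surface, read 7.50, 7.57 and 7.97 in A3 tumours, 7.89, 7.91, 8.08 and 7.89 in D3 tumours and 7.66, 7.39, 7.48 and 7.17 in D4 tumours, against 9.84, 9.34, 9.76 and 9.21 in wt tumours. IFITM1 was called lower, at -1.86 ± 0.21 in A3, -1.60 ± 0.20 in D3 and -2.11 ± 0.20 in D4 (limma adjusted p 2.15e-07, 7e-07 and 4.43e-09). BST2, or tetherin, which retains budding particles, read 9.16, 9.19 and 9.37 in A3 tumours, 9.12, 8.94, 9.17 and 9.14 in D3 tumours and 9.22, 9.10, 9.14 and 8.99 in D4 tumours, against 10.10, 9.84, 10.02 and 9.82 in wt tumours. BST2 was called lower, at -0.70 ± 0.11 in A3, -0.85 ± 0.10 in D3 and -0.83 ± 0.10 in D4 (limma adjusted p 2.68e-05, 5.3e-07 and 6.18e-07). IFITM3 was called lower in each clone, at -0.48 to -0.78. IFITM2, which acts in endosomes like IFITM3, read 9.42, 9.16 and 9.36 in A3 tumours, 8.98, 9.0, 9.09 and 9.06 in D3 tumours and 8.61, 8.66, 8.69 and 8.54 in D4 tumours, against 9.05, 9.04, 9.10 and 9.09 in wt tumours. All A3 arrays lay above all wt arrays, the D3 arrays overlapped with them, and all D4 arrays lay below. The differences were 0.24 ± 0.11 in A3 (limma adjusted p 0.148), -0.04 ± 0.10 in D3 (0.878) and -0.45 ± 0.10 in D4 (0.00182). With array weights the A3 value passed the threshold, at a difference of 0.27 and a limma adjusted p of 0.0494. The IFITM genes have near-identical sequences, and how far each probe set tells them apart was not tested.

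**Figure D2:**
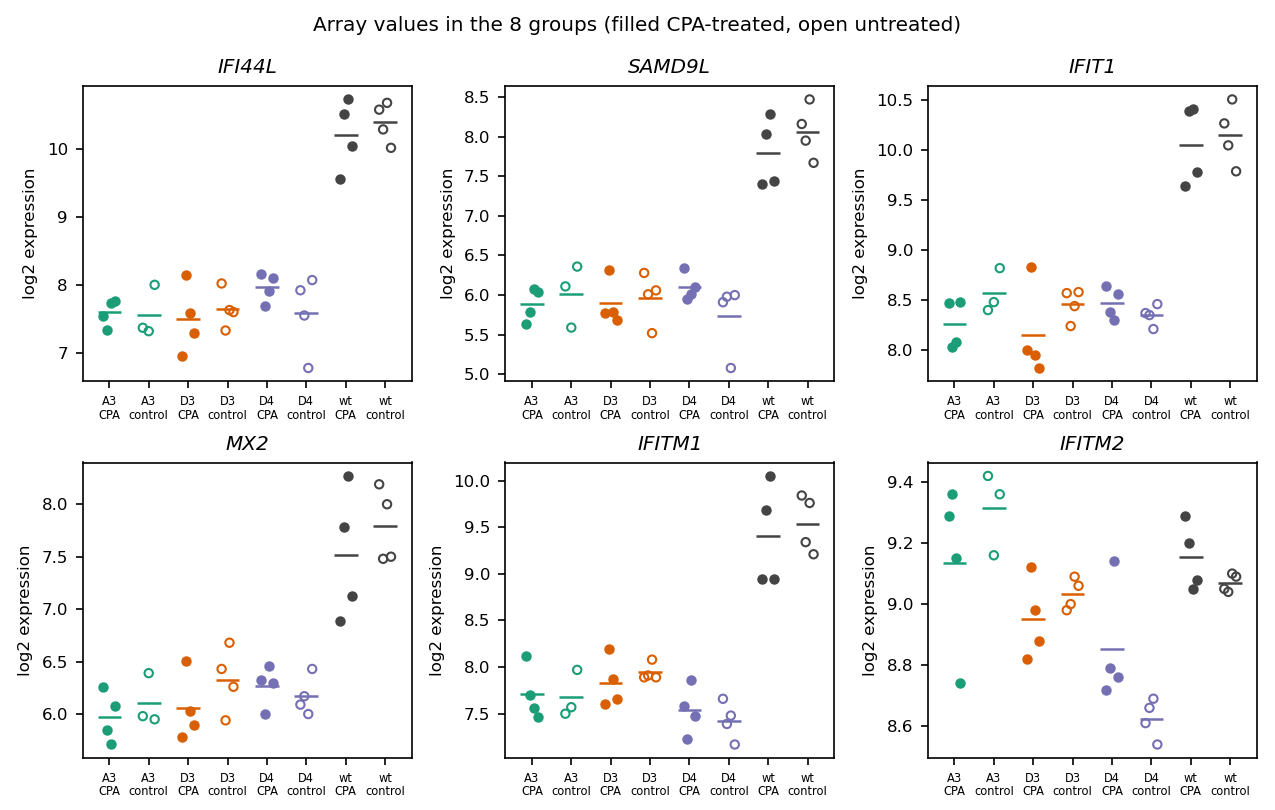
Log2 expression (vertical axis) of 6 genes is plotted for each array in the CPA-treated (filled) and untreated (open) groups of A3, D3, D4 and wt, with a line at each group mean. In IFI44L, SAMD9L, IFIT1, MX2 and IFITM1 all 8 wt arrays lie above all 23 clone arrays, and in IFITM2 the untreated A3 mean is the highest and the untreated D4 mean the lowest.

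Other antiviral effectors included some of the largest differences. SAMD9L, a relative of SAMD9 that restricts poxviruses, read 6.11, 5.59 and 6.36 in A3 tumours, 6.28, 6.01, 5.52 and 6.06 in D3 tumours and 5.91, 5.98, 5.08 and 6.0 in D4 tumours, against 8.16, 7.95, 8.47 and 7.67 in wt tumours. One D4 array, at 5.08, lay far below the other 3. SAMD9L was called lower, at -2.04 ± 0.23 in A3, -2.09 ± 0.21 in D3 and -2.32 ± 0.21 in D4 (limma adjusted p 2.13e-07, 4.42e-08 and 4.43e-09). DDX60, a helicase that aids sensing of viral RNA, read 6.31, 6.04 and 6.48 in A3 tumours, 6.14, 5.96, 5.90 and 6.34 in D3 tumours and 6.16, 6.46, 5.29 and 6.35 in D4 tumours, against 8.14, 7.98, 8.18 and 7.62 in wt tumours, with the same D4 array lowest. DDX60 was called lower, at -1.70 ± 0.22 in A3, -1.89 ± 0.20 in D3 and -1.91 ± 0.20 in D4 (limma adjusted p 1.55e-06, 1.09e-07 and 5.26e-08). SAMD9 (-1.04 to -1.60), TRIM22, a ubiquitin ligase (-1.69 to -1.87), and RSAD2, or viperin, which makes a chain-terminating nucleotide (-1.48 to -1.57), were called lower in each clone. RSAD2 and TRIM22, with EPSTI1 and CXCL10, were among the dimmest 30% of genes. CMPK2, a nucleotide kinase gene beside RSAD2, was called lower only in D3 (-0.42 ± 0.13); in A3 and D4 it differed by -0.39 ± 0.14 and -0.32 ± 0.13 (limma adjusted p 0.0521 and 0.0818).

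All 3 genes of ADP-ribosylation were lower in each clone. PARP9 read 8.57, 8.55 and 8.69 in A3 tumours, 8.75, 8.49, 8.78 and 8.66 in D3 tumours and 8.56, 8.67, 8.61 and 8.78 in D4 tumours, against 10.02, 9.78, 10.11 and 9.64 in wt tumours. PARP9 was called lower, at -1.29 ± 0.14 in A3, -1.22 ± 0.13 in D3 and -1.23 ± 0.13 in D4 (limma adjusted p 9.5e-08, 6.78e-08 and 3.33e-08). DTX3L, the ubiquitin ligase that pairs with PARP9, differed by -0.79 to -0.88, and PARP14, which adds single ADP-ribose units, by -1.05 to -1.09.

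The largest difference of all 37 genes was in IFI44L, whose product has a weak antiviral effect. IFI44L read 7.37, 7.32 and 8.0 in A3 tumours, 8.02, 7.33, 7.63 and 7.60 in D3 tumours and 7.92, 7.55, 6.78 and 8.07 in D4 tumours, against 10.57, 10.28, 10.67 and 10.01 in wt tumours. The lowest wt array, at 10.01, lay far above the highest clone array, at 8.07. IFI44L was called lower, at -2.82 ± 0.27 in A3, -2.74 ± 0.25 in D3 and -2.81 ± 0.25 in D4 (limma adjusted p 2.07e-08, 9.86e-09 and 2.85e-09), which is 7.07-fold, 6.67-fold and 7.0-fold in A3, D3 and D4. IFI44 read 7.93, 7.17 and 7.76 in A3 tumours, 7.35, 7.41, 7.35 and 7.51 in D3 tumours and 6.86, 7.33, 6.58 and 7.76 in D4 tumours, against 9.26, 9.34, 9.44 and 9.07 in wt tumours. IFI44 was called lower, at -1.66 ± 0.24 in A3, -1.87 ± 0.22 in D3 and -2.15 ± 0.22 in D4 (limma adjusted p 6.38e-06, 3.54e-07 and 2.83e-08). IFI6 (-1.55 to -1.58), a membrane protein that limits apoptosis, XAF1 (-1.79 to -1.97), which counters an inhibitor of apoptosis, IFI27 (-1.04 to -1.16), SP110 (-0.82 to -0.97) and IFI35 (-0.44 to -0.60) were called lower in each clone. EPSTI1 was called lower in A3 (-0.46 ± 0.14) and D3 (-0.39 ± 0.13) and differed by -0.34 ± 0.13 in D4 (limma adjusted p 0.0629).

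CXCL10, the only secreted chemokine of the 37, attracts T cells and read 2.88, 2.78 and 2.88 in A3 tumours, 2.66, 2.48, 2.99 and 2.81 in D3 tumours and 3.19, 2.97, 3.10 and 3.08 in D4 tumours, against 3.21, 2.99, 3.01 and 2.94 in wt tumours. It was called lower in D3 (-0.30 ± 0.10, limma adjusted p 0.029). The differences were -0.19 ± 0.10 in A3 and 0.04 ± 0.10 in D4 (limma adjusted p 0.233 and 0.784). The D3 call was lost with only the groups compared in the fit, and when wt replicate 1 or 3 or D3 replicate 1 or 2 was left out, at adjusted p 0.0505 to 0.159.

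The 20 genes with a response element core in the promoter window had median differences from wt of -1.05, -1.12 and -1.12 in A3, D3 and D4. For the 10 without one the medians were -1.37, -1.35 and -1.35. Genes of both kinds covered wide ranges, from -2.82 to -0.19 with the core and from -2.04 to -0.39 without it in A3.

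Within the clones the level of the effector genes was even. The mean of the 37 genes per array lay between 7.05 and 7.44 on the 23 clone arrays, and between 8.03 and 8.72 on the 8 wt arrays. The group means of a gene over the 6 clone groups spanned a median of 0.35. In wt the genes moved together from array to array. On the untreated wt arrays 1 to 4, 29, 8, 35 and 2 of the 37 genes lay above their group mean. On the CPA-treated wt arrays 1, 2, 3 and 5 the counts were 2, 34, 35 and 2. Of all genes, 47.5% to 55.7% lay above the group mean on these 8 arrays. The median SD of the 37 genes over arrays was 0.33 in CPA-treated and 0.25 in untreated wt tumours, and 0.13 to 0.22 in the 6 clone groups, while that of all genes was 0.11 to 0.16.

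Among clone arrays the closest to this was CPA-treated D3 array 3, on which 35 of the 37 genes lay above the group mean, as did 43.2% of all genes. XAF1, IFIT1 and IFI44L read 7.31, 8.83 and 8.15 there. Means of host cell marker lists on the wt arrays were recorded beside this spread. On CPA-treated wt arrays 1, 2, 3 and 5 the mean of 9 myeloid markers was 5.58, 5.46, 5.47 and 5.60, that of 8 endothelial markers 6.17, 6.25, 6.23 and 6.24, and that of 8 fibroblast markers 6.16, 6.01, 5.96 and 6.29. On untreated wt arrays 1 to 4 the myeloid mean was 5.63, 5.47, 5.48 and 5.60, the endothelial mean 6.38, 6.24, 6.20 and 6.16, and the fibroblast mean 6.21, 6.11, 6.16 and 6.16. The fibroblast and myeloid means were each lowest on the 2 CPA-treated arrays where most effector genes lay above their group mean. No such order was seen in untreated wt tumours. Their part in the result was not tested.

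**Figure D3:**
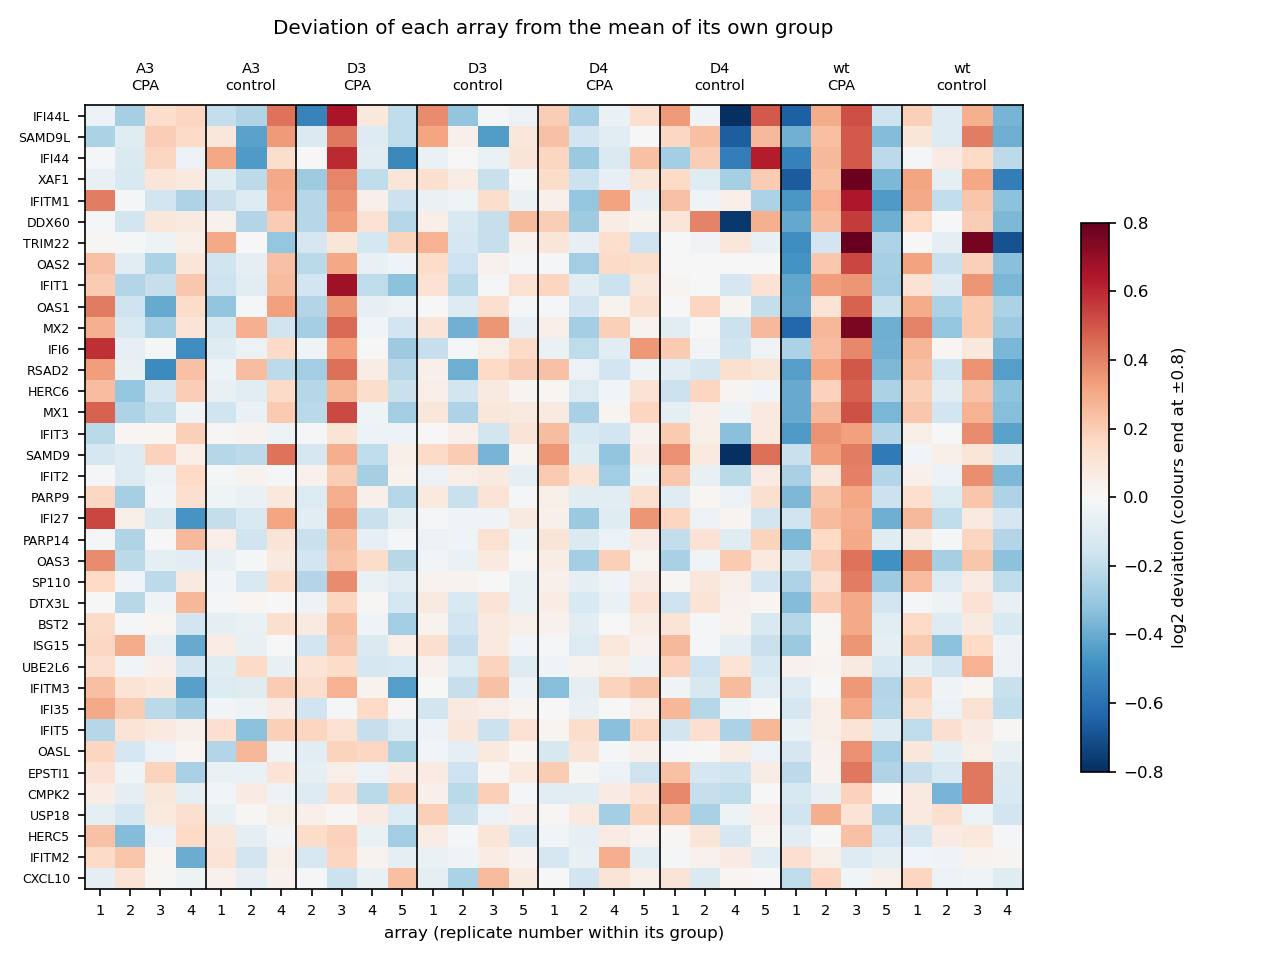
Each cell gives the log2 deviation of 1 array (columns, by replicate number in its group) from the mean of its own group, for each of the 37 genes (lines of the map), red above and blue below. Most columns of wt are nearly uniform in colour, with 35 of 37 genes above the mean on untreated array 3 and CPA-treated array 3, while untreated arrays 1 and 2 are mixed, with 29 and 8 above, and on untreated D4 array 4 a few genes, SAMD9, IFI44L, DDX60 and SAMD9L foremost, are low.

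Untreated D4 array 4 read low for some effector genes and not for others. SAMD9 was 6.66 there against 7.62 to 7.98 on the other 3 D4 arrays, and IFI44 6.58 against 6.86 to 7.76. MX1, at 8.19, and OAS2, at 7.44, lay within the range of the others. This array also had the largest root mean square deviation from its group over all genes, 0.211, where the 31 arrays began at 0.103.

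The next question was whether the resistant clones differ from the sensitive clone A3 in these genes. Untreated D3 against A3 gave no called gene of the 37 (all genes 2.27%), with 4 at an unadjusted p under 0.05 by limma (all genes 11.5%). With array weights 4 were called lower in D3 (USP18, IFIT5, IFITM2 and SAMD9). The median difference was -0.04 and the range ran from -0.49 (SAMD9) to 0.26 (IFITM1). In untreated D4 against A3 the median difference was -0.05, and the range ran from -0.69 (IFITM2) to 0.24 (CXCL10). Here 2 genes were called, both lower (all genes 3.77%). IFITM2 averaged 8.62 ± 0.07 in D4 and 9.31 ± 0.14 in A3 (SD, n = 4 and 3; limma difference -0.69 ± 0.11, adjusted p 0.000222), and no D4 array reached the A3 range. IFIT5 averaged 7.36 ± 0.24 in D4 and 7.91 ± 0.28 in A3 (SD, n = 4 and 3; limma difference -0.54 ± 0.14, adjusted p 0.0191). The highest D4 array of IFIT5, at 7.63, lay above the lowest A3 array, at 7.58. This second call was lost with only the groups compared in the fit (limma adjusted p 0.255) and when A3 replicate 1 or 4 or D4 replicate 1 or 4 was left out (0.0565 to 0.165). D4 against D3 gave no called gene (all genes 0.323%), with 4 at an unadjusted p under 0.05 by limma (all genes 9.67%).

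CPA was then compared with no treatment within each line. None of the 37 genes was called in A3 (all genes 0.352%), D3 (0.231%) or wt (0.0462%), and at an unadjusted p under 0.05 limma gave 0, 2 and 0 (all genes 6.68%, 12.8% and 3.38%). In these 3 lines the 95% interval of the CPA difference lay within 2-fold in either direction for all 37 genes. The widest bounds were -0.78 for DDX60 in A3, -0.72 for IFI44 in D3 and -0.72 for MX2 in wt. Median differences were -0.03 in A3, -0.08 in D3 and -0.07 in wt, against -0.003, 0.012 and 0.009 for all genes. Below 0 lay 19, 29 and 31 of the 37 genes in A3, D3 and wt. The share of all genes on each side of 0 was not counted.

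In D4 the median CPA difference was 0.10, against -0.03 for all genes, and 26 of the 37 genes lay above 0. HERC5 was the only gene of the 37 called for CPA in D4, and it was higher (all genes called in either direction, 1.03%). It read 6.78, 6.74, 6.87 and 6.83 in CPA-treated D4 tumours against 6.36, 6.44, 6.21 and 6.36 in untreated ones, with no overlap. The difference was 0.46 ± 0.11 (limma adjusted p 0.0275). The call was lost with only the groups compared in the fit (adjusted p 0.0624), and when untreated D4 array 1 or 4 or CPA-treated D4 array 1, 2 or 5 was left out (adjusted p 0.0645 to 0.106). Of the other genes, IFI44 differed most, by 0.60 ± 0.22 (limma adjusted p 0.127), with a 95% interval that reached 1.05. IFIT5 differed by 0.41 ± 0.13 (adjusted p 0.0838). IFIT5 passed the threshold when untreated D4 array 2 or 5 or CPA-treated D4 array 4 was left out, and IFI44 when untreated D4 array 5 was. Without untreated D4 array 4 the differences were 0.42 for IFI44, 0.33 for IFIT5 and 0.42 for HERC5.

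The CPA differences of the clones were also set against that of wt. No gene of the 37, and none of all genes, was called for A3, D3 or D4. At an unadjusted p under 0.05 limma gave 0, 1 and 6 of the 37 (all genes 3.2%, 6.61% and 7.33%). The 6 in D4 were DDX60, HERC5, IFI44, IFIT5, SAMD9 and SAMD9L, and all 6 differences were above 0, the highest being 0.73 ± 0.31 for SAMD9. Without untreated D4 array 4 only HERC5 (0.44 ± 0.16) and IFIT5 (0.45 ± 0.18) stayed under that p (all genes 5.36%), and SAMD9, DDX60, SAMD9L and IFI44 differed by 0.44, 0.43, 0.41 and 0.51. With each array left out in turn the count ran from 2 to 10. It was 2 also without CPA-treated wt array 5, 3 without array 1 of CPA-treated D4 or of CPA-treated wt, and 10 without CPA-treated wt array 3.

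**Figure D4:**
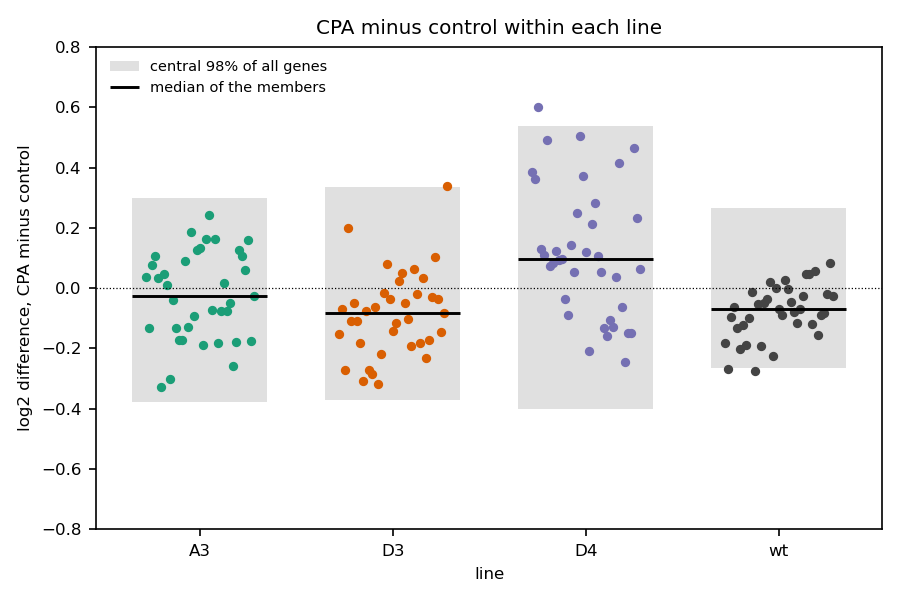
The log2 difference of CPA-treated minus untreated tumours (vertical axis) is plotted for the 37 genes in A3, D3, D4 and wt, with a line at their median and a grey band for the central 98% of all genes. Medians lie at -0.03, -0.08, 0.10 and -0.07, and IFI44 in D4, at 0.60, is the highest point.

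After CPA the clones stayed below wt. Of the 37 genes, 31 were called lower in A3 (all genes 9.6%), 33 in D3 (10.1%) and 34 in D4 (7.59%), and none was called higher (all genes 6.74%, 6.28% and 7.54%). At least 2-fold lower were 19, 21 and 18 of them, against 0.56%, 0.427% and 0.451% of all genes. IFI44L read 7.55, 7.33, 7.74 and 7.77 in A3 tumours, 6.96, 8.15, 7.58 and 7.29 in D3 tumours and 8.16, 7.69, 7.91 and 8.10 in D4 tumours, against 9.55, 10.50, 10.72 and 10.04 in wt tumours. Its differences were -2.60 ± 0.25 in A3, -2.71 ± 0.25 in D3 and -2.24 ± 0.25 in D4 (limma adjusted p 2.22e-08, 1.39e-08 and 1.95e-07). SAMD9L read 5.63, 5.79, 6.08 and 6.04 in A3 tumours, 5.78, 6.32, 5.79 and 5.69 in D3 tumours and 6.34, 5.95, 6.02 and 6.10 in D4 tumours, against 7.40, 8.03, 8.28 and 7.44 in wt tumours, again with no overlap. Median differences from wt were -1.08, -1.23 and -0.95 in A3, D3 and D4.

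Between treated clones, USP18 was lower in D3 than in A3 (-0.50 ± 0.11, limma adjusted p 0.00708), the only gene of the 37 called there (all genes 4.55%). Treated D4 against A3 gave 4 called genes (all genes 12.4%). USP18 was lower (-0.56 ± 0.11, limma adjusted p 0.00118). It read 6.85, 6.92, 6.57 and 7.02 in D4, 6.94, 6.91, 6.97 and 6.79 in D3 and 7.33, 7.26, 7.48 and 7.53 in A3. DDX60 (0.60 ± 0.20), IFIT2 (0.41 ± 0.14) and CXCL10 (0.33 ± 0.10) were higher in D4 (limma adjusted p 0.0485, 0.0444 and 0.0275). Leaving out single arrays gave 1 to 6 calls in place of 4; the lowest count came without A3 array 1 or 3 or D4 array 1 or 5.

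The other genes of the pathway were read in the same untreated comparisons, in which 8.36%, 8.4% and 10.9% of all genes were called lower and 10.1%, 9.69% and 9.22% higher in A3, D3 and D4. Of 12 interferon genes measured, none was called in any clone, and by limma their differences from wt ran from -0.60 to 0.26. The list named 21, and IFNB1 was among those not read. Several of the 12 were dim, so the lack of a call says little about them. IFNG read 2.86 to 3.08 on untreated wt arrays, far below the array medians, while IFNL3 read 7.79 to 8.11. Among 9 receptor and kinase genes 1, 1 and 2 were called lower in A3, D3 and D4, which in A3 and D3 is near those shares of all genes. IFNGR2, a chain of the interferon gamma receptor, was lower in D3 (-0.27 ± 0.09) and D4 (-0.41 ± 0.09), IFNGR1 in A3 (-0.31 ± 0.11), and IFNAR2, a chain of the type I receptor, in D4 (-0.38 ± 0.13). Of 7 transcription factor genes, IRF9, the DNA-binding subunit of the complex that binds the response element, was called lower in all 3 clones. IRF9 averaged 8.18 ± 0.12 in A3, 8.08 ± 0.22 in D3, 8.18 ± 0.10 in D4 and 8.97 ± 0.12 in wt (SD, n = 3 in A3 and 4 in the others; limma adjusted p 5.85e-05, 4.26e-06 and 1.73e-05). IRF1 was lower in A3 (-0.37 ± 0.12). Of 5 negative regulators, SOCS3 was higher in A3 and D3 (0.34 in both) and PIAS1 lower in D3 (-0.34 ± 0.10) and D4 (-0.34 ± 0.10).

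Of 16 sensors of nucleic acid and their partners, 5, 6 and 6 were called lower in A3, D3 and D4 (all genes 8.36%, 8.4% and 10.9%). Higher were 2, 1 and 1, near the shares of all genes (10.1%, 9.69% and 9.22%). IFIH1 and RIGI, helicases that detect viral RNA in the cytosol and are themselves induced by interferon, were called lower in each clone, at -1.67 to -1.76 and -1.15 to -1.41. IFI16, a DNA sensor, was called lower, at -0.54 in A3, -0.97 in D3 and -1.28 in D4, and was also lower in D4 than in A3 (-0.74 ± 0.16, limma adjusted p 0.00726). CGAS, the cytosolic DNA sensor that makes cyclic GMP-AMP, was higher by 0.64, 0.55 and 0.57 in A3, D3 and D4. IKBKE, a kinase of this pathway, was higher in A3 (0.49 ± 0.09).

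Of 14 genes chiefly induced by interferon gamma, 6, 5 and 4 were called lower in A3, D3 and D4 (all genes 8.36%, 8.4% and 10.9%). IDO1, which degrades tryptophan, differed by -1.18 to -1.31, and ICAM1, an adhesion molecule, by -0.54 to -0.70, both called in each clone. GBP3, a GTPase of host defence, was called lower in each clone, at -0.51 to -0.67. CD274, which encodes the checkpoint ligand PD-L1, went the other way in the resistant clones, at 0.79 ± 0.17 in D3 and 0.91 ± 0.17 in D4 (limma adjusted p 0.00137 and 0.000253), and differed by 0.19 ± 0.19 in A3 (limma adjusted p 0.581). Only 4 of 14 listed genes of MHC class I presentation were read here. B2M, the light chain of MHC class I, was called lower in each clone, at -0.67 to -0.74, as was the peptide trimming enzyme ERAP1, at -0.41 to -0.48. ERAP2 was lower in D3 (-0.52) and D4 (-0.60), and the proteasome subunit gene PSMB10 was higher in D3 (0.39) and D4 (0.29). Of the 7 genes known as an interferon-related DNA damage resistance signature, 6 were read, and all 6 are among the 37. Each was called lower in all 3 clones, in A3 as in D3 and D4, and none was called between D3 or D4 and A3, or for CPA in any line.

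Summed levels of host cell markers overlapped between each clone and wt. The probes are human, so tumour RNA, host RNA and background signal cannot be told apart in these markers. On untreated wt arrays KDR read 9.23 to 9.79, while PTPRC, of the myeloid list, read 3.08 to 3.43. Overlap of the sums therefore does not measure how many host cells the tumours held. The mean of 9 myeloid markers over untreated arrays was 5.61 in A3, 5.55 in D3, 5.57 in D4 and 5.54 in wt, with summed log2 levels of 49.92 to 51.49, 49.73 to 50.16, 49.39 to 50.72 and 49.19 to 50.71 on the arrays of these groups. For 8 endothelial markers the means were 6.13, 6.16, 6.18 and 6.24, with sums of 48.53 to 49.83, 49.00 to 49.92, 48.80 to 50.41 and 49.27 to 51.05. For 8 fibroblast markers they were 5.98, 6.18, 6.08 and 6.16, with sums of 47.08 to 49.29, 48.98 to 50.06, 48.25 to 49.56 and 48.89 to 49.71. Of these 25 markers 4, 2 and 3 were called lower (all genes 8.36%, 8.4% and 10.9%) and 2, 1 and 2 higher (all genes 10.1%, 9.69% and 9.22%) in A3, D3 and D4, so most of these counts lie near the shares of all genes. KDR, a receptor of endothelial cells, was lower in all 3 clones (-1.01 to -1.74), and so was COL3A1, a collagen gene of fibroblasts (-0.61 to -1.01). Other markers of both lists went the other way. The endothelial differences had medians of 0.04, 0.05 and 0.17 in A3, D3 and D4 and reached 0.35, 0.27 and 0.38. Those of the fibroblast list had medians of -0.03, 0.10 and 0.03 and reached 0.21, 0.43 and 0.23. The part of the host markers in the result was not tested.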

How the data were processed

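Expression was measured on 31 arrays of RNA from PC3 xenograft tumours. The submitters' processing notes name RMA as the source of the deposited log2 values. RMA subtracts background, quantile-normalizes the arrays and joins the probes of each set into 1 level, which tends to shrink differences of dim genes. Its software and version are not given in the sources used here. Of 23989 probe sets, 17624 carried 1 symbol in the platform annotation, 411 several and 5954 none. Only the first kind was used, with the set of the highest mean over all arrays kept for each of 17314 genes. All 37 member genes had an Entrez number found in the RefSeq table of GRCh38.p14.

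A mean for each of 8 groups was fitted over all arrays (lmFit, then eBayes, of limma 3.58.1 under R 4.3.3), which left 23 residual degrees of freedom. Adjusted p-values are Benjamini-Hochberg values over the 17314 genes. The median residual SD was 0.148, and precision is limited by how many arrays each group has. The fit was tested on simulated data with 200 changed genes among 17314. A log2 change of 0.5 was recovered in 67.5% of them for A3 against wt, 69.5% for CPA in wt and 36% for the CPA effect in D3 minus that in wt, and a change of 1 in 100%, 99% and 90%, so counts of 0 say little about small changes. Alternatives are given in the closing section.

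The 37 genes and the lists of pathway and host genes were chosen with earlier results of these data known. Full values are given for the members with the largest mean difference from wt in each role, the 2 with the smallest, and called members of the other untreated comparisons and of CPA; for pathway lists up to 4 called genes each, with others named after their values were seen. Members called between treated clones were also named after their values were seen. The labels give no batch, and none was used. Some genes of the pathway lists were not analysed here.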

Additional observations from a re-analysis of the deposited data

Results flagged for a closer look

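In groups of 4 arrays, 6 of 259 combinations of a gene and a group (2.32%) held 1 array that stood apart, with a gap to the nearest other array that took most of the range of the group. Chance alone gives about 1 in 20. SAMD9L read 5.08 on untreated D4 array 4, against 5.91 to 6.0 on the other 3, and this array was also low for DDX60 and SAMD9. SAMD9L read 6.32 on CPA-treated D3 array 3, against 5.69 to 5.79. MX1 read 8.0 on untreated D3 array 2, against 8.32 to 8.34. IFITM1 read 8.08 on untreated D3 array 3, against 7.89 to 7.91, and PARP14 read 9.14 on the same array, against 8.97 to 8.98. EPSTI1 read 4.92 on untreated wt array 3, against 4.31 to 4.38.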

How the results depend on the processing

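The counts of effector genes called lower against wt stayed within 1.5 times under each alternative: a fit of only the groups compared, a replicate block, a variance trend, array weights, further quantile normalization, median centring, leaving out the dimmest 30% of genes, the mean of all probe sets and each array left out in turn. With arrays left out, they ran from 28 to 32 in A3, 32 to 35 in D3 and 34 to 36 in D4 untreated, and from 29 to 31, 32 to 33 and 31 to 33 after CPA. Direction was checked for single named genes in the untreated clones against wt, untreated D4 against A3 and CPA in D4. No called result changed direction there, and the other comparisons were not checked gene by gene. With only the groups compared, D4 against A3 untreated gave 1 call and CPA in D4 gave 0. With array weights, D3 against A3 gave 4 calls, D4 against D3 gave 1 and treated D4 against A3 gave 7. With arrays left out, D4 against A3 untreated gave 1 to 2 calls, CPA in D4 0 to 3, treated D3 against A3 1 to 2 and treated D4 against A3 1 to 6. The causes were not tested. Of the checks of single named genes, 1378 kept their side of the threshold, 5 gained a call and 16 lost one. Replicate numbers were not used as pairs in the main fit. Deviations of same-numbered arrays correlated at -0.661 to 0.600 (median 0.053, 84 pairs, 35 of them over 0.1). For differently numbered arrays the range was -0.486 to 0.619 (median -0.013, 336 pairs, 123 of them over 0.1). Such wide, overlapping ranges cannot exclude pairs or a batch shared by some arrays. With the replicate block 30, 35 and 34 genes were called lower in untreated A3, D3 and D4, so it moved no such count by over 1.5 times. Counts over all genes moved more. Over the alternatives that kept all arrays they ran from 1882 to 3781 for A3 against wt (3200 as reported), 1805 to 3804 for D4 against wt (3482), 2415 to 4028 for treated D4 against wt (2620), 105 to 1207 for D3 against A3 (393), 67 to 1644 for D4 against A3 (653), 22 to 106 for D4 against D3 (56), 404 to 875 and 1710 to 4632 for treated D3 and D4 against A3 (787 and 2143), and 15 to 177, 35 to 185, 17 to 349 and 2 to 11 for CPA in A3, D3, D4 and wt (61, 40, 178 and 8). With single arrays left out, CPA in D4 gave 34 (without untreated D4 array 1) to 787 calls over all genes (without untreated D4 array 2). The lowest counts of the others that moved over 1.5 times were 168 for D3 against A3, 281 for D4 against A3 and 18 for CPA in A3 (each without untreated A3 array 4), 24 for CPA in D3 and 35 for D4 against D3 (without untreated D3 array 2), 3 for CPA in wt (without untreated wt array 2, and without CPA-treated wt array 2 or 5), 1772 for treated D3 against wt (without CPA-treated wt array 3), 1177 for treated D4 against A3 (without CPA-treated A3 array 1) and 481 for treated D3 against A3 (without CPA-treated D3 array 5). RSAD2, TRIM22, EPSTI1 and CXCL10 are dim, so their differences rest on low signal.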
